A study of Mus musculus with 9 samples.

Results

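The genes of glycolysis and of the hypoxia response were followed by RNA sequencing in B16 cells, a mouse melanoma line, under cyclic straining and under the myosin inhibitor blebbistatin. The set holds 39 genes named by symbol, among 22972 gene names listed. The rule that picks them uses no measured value, though they were chosen with earlier results of these data known. They are 24 genes of glucose uptake, glycolysis, lactate and flux control, and 15 genes of oxygen sensing and of targets of the hypoxia-inducible factor (HIF). Of these, 36 averaged 1 FPKM or more across the libraries and were tested. The other 3, Slc16a3, Eno2 and Ankrd37, lay under that minimum. FPKM counts the fragments of a gene relative to gene length and to the total mapped in that library.

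A total of 9 libraries were analyzed, 3 in each of 3 groups. All were made from wild-type B16 cells grown on PDMS film in serum-supplemented DMEM and sampled on day 3. The control group (CTL) was not strained, the MS group was strained cyclically through the film for 72 h, and the third group was given blebbistatin at 100 ng/mL for 72 h. The labels of the third group name blebbistatin and no straining, whereas the paper describes strained cells with the inhibitor, and it is called Blebb. here. Values are given in the order of library numbers 1, 2 and 3, after the parallel experiment of the label, which does not say whether the cultures were separate, so that p-values measure only the spread between these libraries. A single cell line was used.

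Glycolysis splits glucose into pyruvate, and lactate dehydrogenase turns pyruvate into lactate, which monocarboxylate transporters carry out of the cell. Tumor cells, melanoma included, are known for running this route even where oxygen is present. HIF is a transcription factor whose alpha subunit is hydroxylated by the prolyl hydroxylases (Egln genes) and degraded while oxygen is at hand. When oxygen falls the subunit is kept, and many glycolytic enzymes as well as genes of mitophagy, pH control and vessel growth are transcribed. As HIF1A is controlled mainly at the protein level, its transcript is not a measure of its activity.

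Several libraries stood apart across the whole transcriptome, and in no group did all 3 do so. Summed over 15 genes of the integrated stress response, CTL replicate 1 held 1985 FPKM, MS replicate 3 held 1601 and Blebb. replicate 2 held 1977, against 841 to 1236 in the other 6. For 14 S phase genes the sums were 506, 687 and 514 FPKM in those libraries and 1123 to 1262 in the others. GC content was tied to the libraries as well. The correlation across genes between GC content and a gene's deviation from its mean ran from -0.64 in MS replicate 1 to 0.55 in Blebb. replicate 1, as a description of the libraries. The melanocyte markers Mitf, Sox10, Pmel, Mlana, Tyr, Tyrp1, Dct and Slc45a2 were all expressed, with sums of 7640 to 13445 FPKM. Fibroblast markers summed to at most 0.567 FPKM and keratinocyte markers to at most 0.055, while macrophage markers summed to 2.13 to 4.32 FPKM with 1 of 6 genes at a mean of 1 or more. In bulk RNA, fewer cells of a kind and less RNA per cell cannot be told apart.

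No member passed the test in any comparison. In MS against CTL, 0 of 36 members had an adjusted p under 0.05, and so did 0% of the 10109 genes tested (limma with Benjamini-Hochberg adjustment). At an unadjusted p under 0.05 there were 0 members, against 0.158% of all genes. In Blebb. against MS the members past the adjusted and the unadjusted threshold were again 0, with 0% and 1.25% of all genes. In Blebb. against CTL both counts were 0, with 0% and 0.089% of all genes. Without overlap between the groups stood 0 of 36 members in MS against CTL (3.17% of all genes), 2 of 36, Pfkfb3 and Car9, in Blebb. against MS (3.73%), and 1 of 36, Pfkp, in Blebb. against CTL (2.08%). The members' median log2 fold change, on the log2(FPKM + 1) scale used throughout, was 0.0043 in MS against CTL, with 19 members above 0 and 17 below, and the median of all genes was -0.0018. It was -0.0039 in Blebb. against MS and -0.0041 in Blebb. against CTL, beside -0.0059 and -0.0125 for all genes. The differences of single genes given below are log2 fold changes on this scale with their standard error, for 3 libraries against 3.

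**Figure D1:**
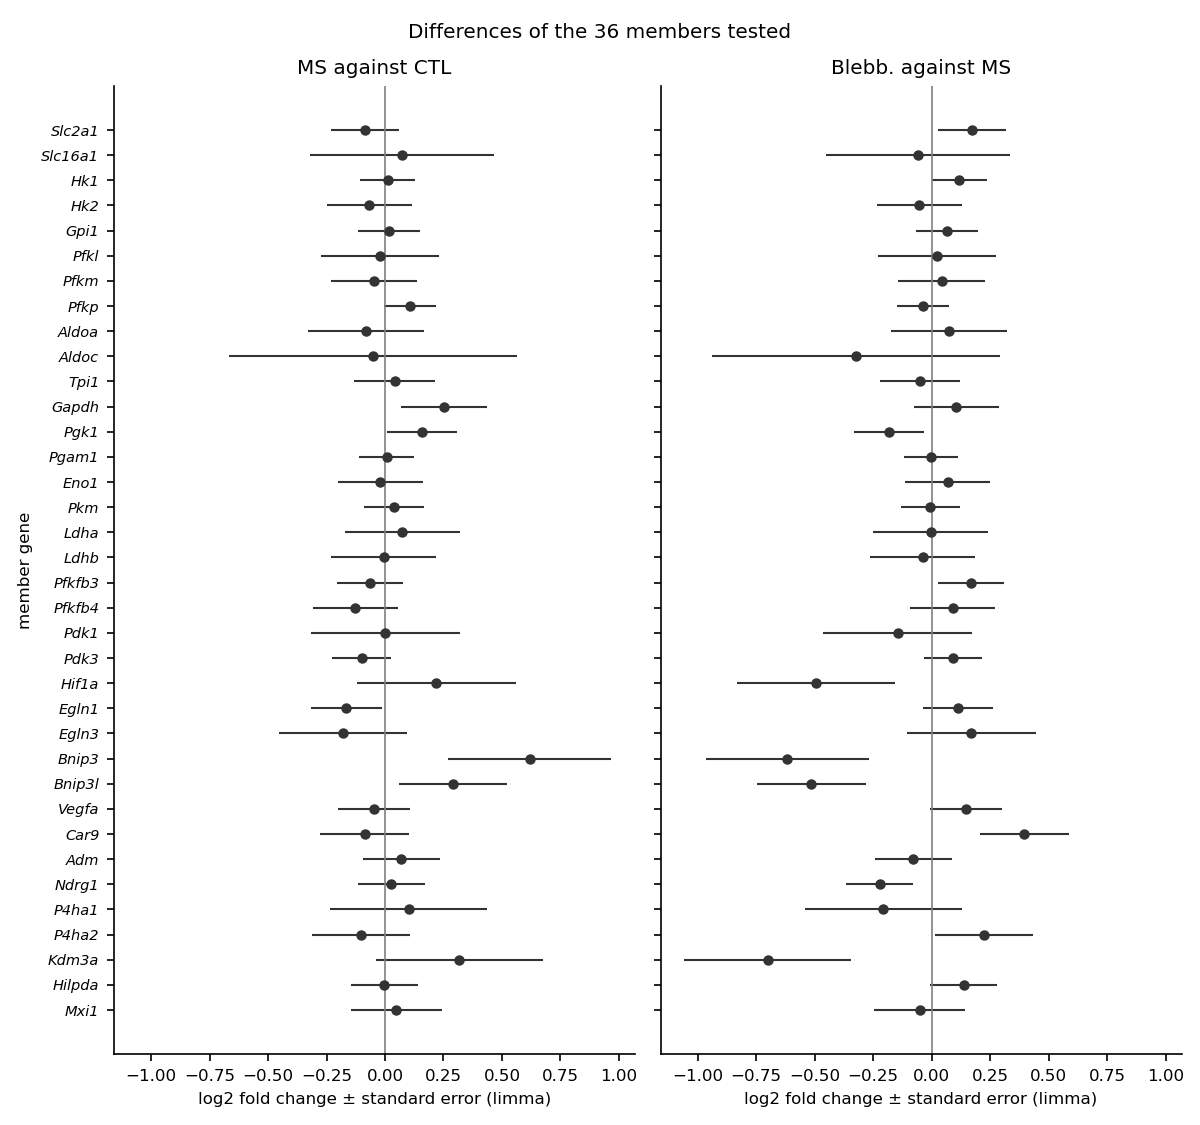
Log2 fold change of each of the 36 members tested (x axis, log2(FPKM + 1) scale) in MS against CTL (left) and in Blebb. against MS (right), with points for the estimate and bars for the standard error from limma (3 libraries a group). Most points lie near 0, Bnip3 is farthest right on the left side at 0.62, and Kdm3a farthest left on the right side at -0.70.

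Uptake of glucose and export of lactate were first considered. Slc2a1, the glucose transporter GLUT1, stood at 19.0, 21.0 and 21.1 FPKM in CTL, 18.9, 22.0 and 16.8 in MS and 24.6, 18.8 and 22.1 in Blebb. libraries. The values of the 3 groups overlapped and their total span was 1.46-fold. Slc2a1 differed by -0.09 ± 0.14 (SE) in MS against CTL and by 0.17 ± 0.14 (SE) in Blebb. against MS, where its adjusted p was 0.897 (limma with Benjamini-Hochberg adjustment). Slc16a1, the lactate transporter MCT1, varied far more, with 12.3, 28.2 and 28.9 FPKM in CTL, 28.0, 25.1 and 16.9 in MS and 23.9, 13.2 and 32.8 in Blebb. libraries. Its 3 lowest values were those of CTL replicate 1, Blebb. replicate 2 and MS replicate 3, 1 in each group, and the other 6 libraries lay between 23.9 and 32.8 FPKM. The group means were close, at 23.1 ± 9.39 (SD, n = 3), 23.3 ± 5.78 and 23.3 ± 9.82 FPKM in CTL, MS and Blebb. Slc16a3, the transporter MCT4 of strongly glycolytic cells, was barely present at 0.571, 0.527 and 0.367 FPKM in CTL, 0.935, 0.476 and 0.781 in MS and 0.350, 0.649 and 0.367 in Blebb. libraries. MCT1 was the main transcript of the pair per length in every library.

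The upper part of the pathway, from hexokinase to triose phosphate isomerase, was carried by a few abundant transcripts. Aldoa, the aldolase that splits fructose bisphosphate, held 2962, 2056 and 1575 FPKM in CTL, 1964, 1841 and 2236 in MS and 2087, 2666 and 1698 in Blebb. libraries. CTL replicate 1 and Blebb. replicate 2 were the highest and CTL replicate 3 the lowest, so that CTL alone spanned the range of all groups. Tpi1, which interconverts the triose phosphates, held 1248, 1221 and 923 FPKM in CTL, 1369.7, 1124 and 995 in MS and 1152, 1189 and 1007 in Blebb. libraries. Gpi1, glucose phosphate isomerase, was steadier at 437, 462 and 372 FPKM in CTL, 451, 457 and 378 in MS and 474, 453 and 415 in Blebb. libraries. Neither gene separated the groups, and the highest library was MS replicate 1 for Tpi1 and Blebb. replicate 1 for Gpi1. Hk2, the inducible hexokinase, stood at 7.05, 5.58 and 8.21 FPKM in CTL, 6.88, 5.36 and 7.47 in MS and 6.68, 5.32 and 6.84 in Blebb. libraries, well under the housekeeping Hk1 with 29.5 to 36.9 FPKM. The 3 phosphofructokinase genes Pfkl, Pfkm and Pfkp, whose enzyme commits the sugar to glycolysis, were expressed together at 27.4 to 74.6 FPKM. Pfkp was the member without overlap in Blebb. against CTL, by a margin of 41.9 FPKM in the highest CTL library to 42.2 in the lowest Blebb. library. Its difference was 0.07 ± 0.11 (SE), with an unadjusted p of 0.548 in limma.

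Aldoc, the brain-type aldolase, had the largest SD of log2(FPKM + 1) over the libraries of all 39 members, 0.808, and spanned 4.89-fold from lowest to highest. It stood at 35.0, 16.1 and 8.64 FPKM in CTL, 15.6, 10.4 and 27.4 in MS and 9.30, 31.5 and 7.16 in Blebb. libraries. CTL replicate 1, Blebb. replicate 2 and MS replicate 3 were the 3 highest, the libraries that also held the most stress-response transcript, and the part of that state in the level was not tested. Groups overlapped widely, with differences of -0.05 ± 0.62 (SE) in MS against CTL and -0.32 ± 0.62 (SE) in Blebb. against MS. Without those 3 libraries the latter was -0.58, and it changed sign, to 0.07, without Blebb. replicate 3 and, to 0.03, without MS replicate 3.

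**Figure D2:**
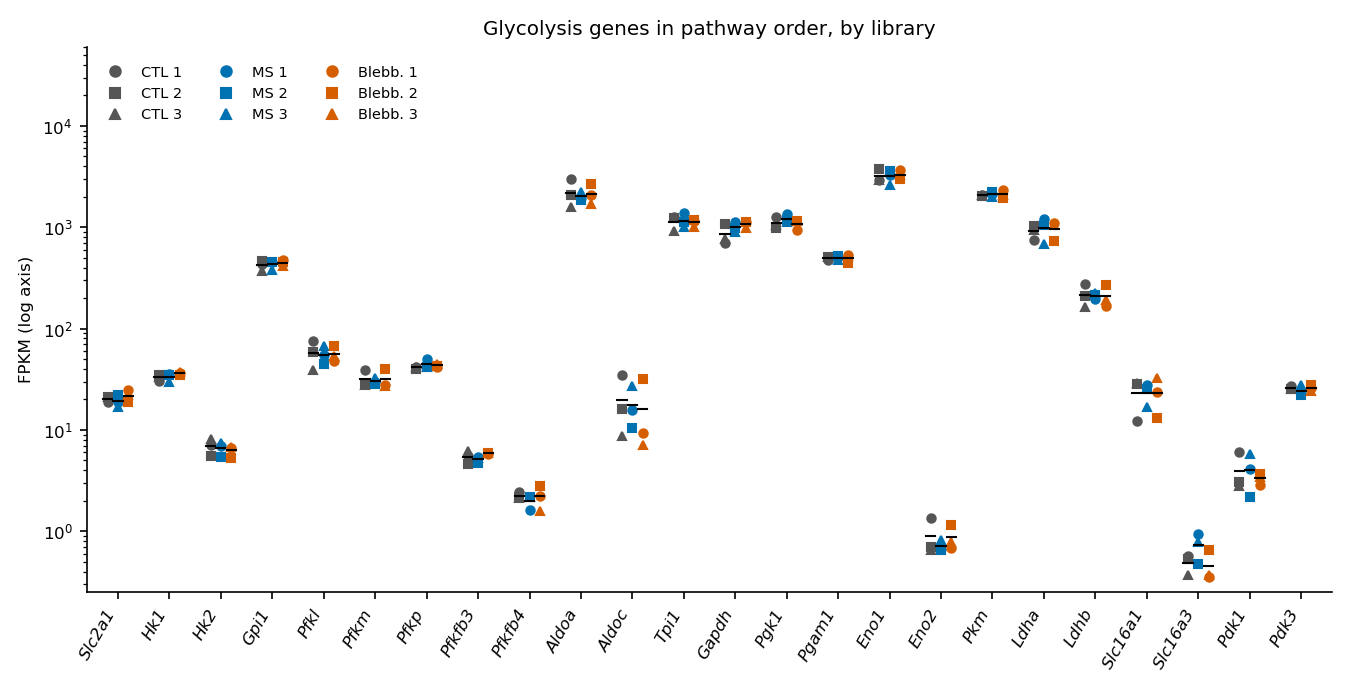
FPKM (y axis, log scale) of the 24 genes of uptake, glycolysis, lactate and flux control in each of the 9 libraries, with gray for CTL, blue for MS, orange for Blebb., marker shapes for the library number and black lines for group means. Eno1, Aldoa and Pkm lie at the top, above 1575 FPKM in every library, and group means nearly coincide for most genes.

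The lower part, from Gapdh to pyruvate kinase, followed. Eno1, alpha-enolase, had the highest mean of all members over the 9 libraries, at 2907, 3781 and 2922 FPKM in CTL, 3310.4, 3606 and 2585 in MS and 3639, 2962 and 3297 in Blebb. libraries. Pkm, the pyruvate kinase of tumor cells, held 2086, 2046 and 2061 FPKM in CTL, 2122, 2246 and 1999 in MS and 2346, 1950.4 and 2059 in Blebb. libraries. Pgk1, which makes the first ATP of the pathway, held 1259, 972 and 1051 FPKM in CTL, 1337, 1179 and 1135 in MS and 939, 1144 and 1141 in Blebb. libraries. Pkm was among the steadiest members, within 1.20-fold over all libraries, and the groups of all 3 genes overlapped. Gapdh, often used as a reference gene, was less even at 694, 1080.4 and 770.5 FPKM in CTL, 1130.2, 974 and 887 in MS and 1119, 1119.6 and 972 in Blebb. libraries. CTL replicates 1 and 3 were its 2 lowest libraries, but CTL replicate 2 was higher than MS replicates 2 and 3. Gapdh differed by 0.25 ± 0.18 (SE) in MS against CTL, where it was the largest value of the glycolysis genes, and by 0.36 ± 0.18 (SE) in Blebb. against CTL (unadjusted p = 0.0818 and adjusted p = 1.00, limma with Benjamini-Hochberg adjustment). Without CTL replicate 1 the MS value was 0.12 and without CTL replicate 2 it was 0.44. Pgam1, phosphoglycerate mutase, stayed within 448 to 533 FPKM. Eno2, the neuronal enolase, was under the minimum at 1.35, 0.694 and 0.651 FPKM in CTL, 0.672, 0.648 and 0.820 in MS and 0.677, 1.15 and 0.786 in Blebb. libraries.

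Many of these enzymes have processed copies in the mouse genome, and how the authors' counting treated them is not given in the sources used here. In GENCODE M21, 67.5% of the 75-base stretches of the longest Pgk1 transcript also occur in a transcript of another gene. By the same measure the value was 65.4% for Eno1, 40.6% for Pgam1, 22.8% for Gapdh and 19.6% for Pkm. For Ldhb and Ldha it was 16.7% and 5.2%. For Eno1 the copies include the gene Eno1b, and for Gapdh 111 genes share a stretch. The levels of these genes, and shares computed from them, are therefore uncertain. From hexokinase to lactate dehydrogenase the enzymes took 2.52% to 3.00% of the summed FPKM of a library, the lowest in MS replicate 3 and the highest in CTL replicate 2.

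Lactate dehydrogenase is built from the subunits LDHA, favoring lactate, and LDHB, favoring pyruvate. Ldha stood at 756, 1038 and 948 FPKM in CTL, 1205, 1052 and 686 in MS and 1102, 736 and 1060.3 in Blebb. libraries. Ldhb stood at 276, 210.0 and 162 FPKM in CTL, 196, 212 and 223 in MS and 167, 270.2 and 189.7 in Blebb. libraries. MS replicate 3, Blebb. replicate 2 and CTL replicate 1 were the 3 lowest libraries for Ldha and the 3 highest for Ldhb. Ldhb made up 26.7%, 24.5% and 26.9% of the summed FPKM of the pair in CTL replicate 1, MS replicate 3 and Blebb. replicate 2, and 13.1% to 16.8% in the other 6. By group the share was 19.4% ± 6.46 (SD, n = 3) in CTL, 18.4% ± 5.47 in MS and 18.4% ± 7.40 in Blebb. By exact permutation (two-sided) p was 0.7 in MS against CTL and 1 in Blebb. against MS, and 3 against 3 allows no p under 0.1.

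Such shares within a family, which do not move with the scaling of a library, were computed for 13 members. In 0 of 13 did the groups stand apart in any of the 3 comparisons, and the smallest exact p was 0.4 in MS against CTL, 0.5 in Blebb. against MS and 0.3 in Blebb. against CTL, or 0.91, 1 and 0.9 after Benjamini-Hochberg adjustment over the shares. P4ha2, a catalytic subunit of collagen prolyl hydroxylase, took 21.7%, 17.2% and 26.5% of its pair with P4ha1 in CTL replicate 1, MS replicate 3 and Blebb. replicate 2, and 32.1% to 44.1% in the others. The share of Egln3 in its pair with Egln1 was 16.4%, 13.7% and 20.4% in those libraries and 9.11% to 12.7% in the others. For Aldoc the share was 1.17%, 1.21% and 1.17%, against 0.420% to 0.786%. The same libraries were also the 3 highest or the 3 lowest for the shares of Pfkp, Eno2 and Slc16a3. They were neither for Hk2, Pfkl, Pfkm, Pdk3, Pfkfb4 and Bnip3l. These libraries were named for their stress-response and S phase sums, and the part of either in the shares was not tested.

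**Figure D3:**
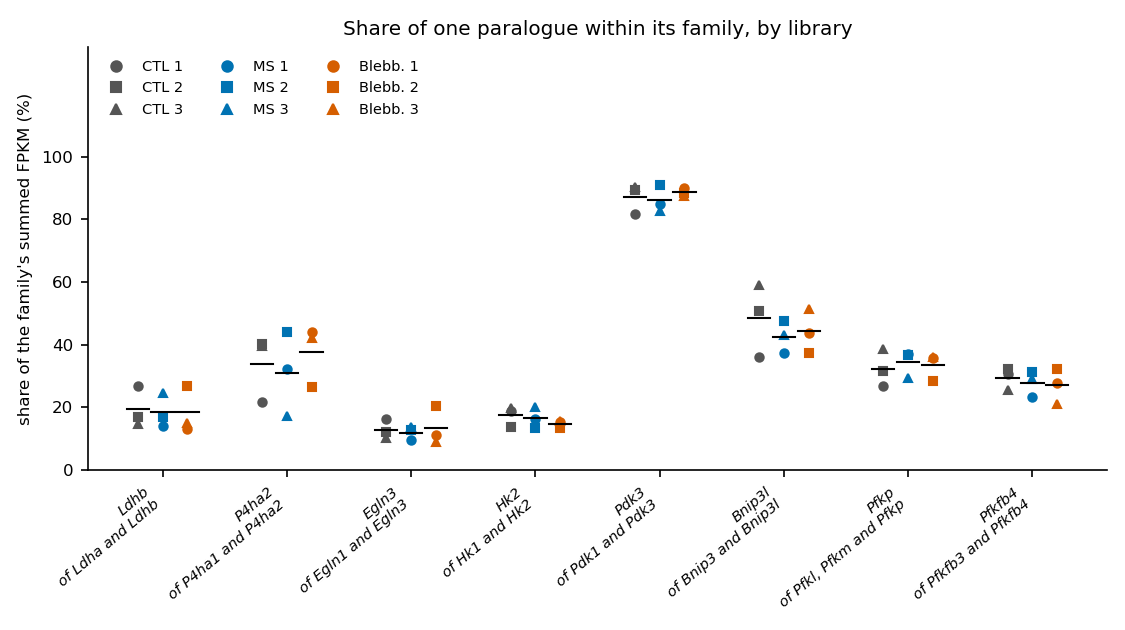
Share of a gene in the summed FPKM of its family (y axis, percent) for 8 families in each of the 9 libraries, colored by group (gray CTL, blue MS, orange Blebb.), with marker shapes for the library number and black lines for group means. CTL 1, MS 3 and Blebb. 2 lie above the others for Ldhb and Egln3 and below them for P4ha2, while the group means lie close together.

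The regulators of flux were expressed at low to moderate levels. Pfkfb3, which makes the activator of phosphofructokinase, stood at 5.53, 4.56 and 6.19 FPKM in CTL, 5.35, 4.73 and 5.28 in MS and 5.79, 5.91 and 5.88 in Blebb. libraries. All 3 Blebb. libraries were above all 3 MS libraries, but CTL spanned both. Pfkfb3 differed by 0.17 ± 0.14 (SE) in Blebb. against MS (adjusted p = 0.897, limma with Benjamini-Hochberg adjustment), and between 0.12 and 0.19 with each library left out in turn. Its relative Pfkfb4 held 2.45, 2.18 and 2.13 FPKM in CTL, 1.63, 2.17 and 2.16 in MS and 2.22, 2.82 and 1.59 in Blebb. libraries. Pdk1 and Pdk3 encode kinases that switch off pyruvate dehydrogenase. Pdk1 stood at 6.11, 3.03 and 2.77 FPKM in CTL, 4.07, 2.16 and 5.76 in MS and 2.86, 3.65 and 3.46 in Blebb. libraries. Pdk3 stood at 27.2, 25.3 and 25.5 FPKM in CTL, 23.1, 22.0 and 27.8 in MS and 26.1, 27.5 and 24.0 in Blebb. libraries. Pdk1, a known HIF target, was highest in CTL replicate 1 and MS replicate 3, and in every library Pdk3 was the larger transcript per length, with 81.7% to 91.1% of the pair.

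In oxygen sensing, the transcript of Hif1a stood at 10.4, 16.1 and 17.7 FPKM in CTL, 21.7, 12.0 and 18.4 in MS and 9.59, 8.31 and 19.8 in Blebb. libraries. MS replicate 1 was the highest and Blebb. replicate 3 the second, and each group held a value under 16.1 FPKM, that of CTL replicate 2. The difference was 0.22 ± 0.34 (SE) in MS against CTL and -0.49 ± 0.34 (SE) in Blebb. against MS (unadjusted p = 0.179 and adjusted p = 0.897, limma with Benjamini-Hochberg adjustment). After removal of each library's GC trend these were 0.02 and -0.16, and without CTL replicate 1, MS replicate 3 and Blebb. replicate 2 they were -0.06 and -0.21. With 1 library left out they ranged from 0.0013 without CTL replicate 1 to 0.45 without MS replicate 2, and from -0.85 without Blebb. replicate 3 to -0.27 without Blebb. replicate 2. Egln1, the main prolyl hydroxylase that marks HIF for degradation, stood at 13.8, 11.9 and 13.3 FPKM in CTL, 10.4, 10.2 and 14.3 in MS and 13.3, 12.1 and 12.2 in Blebb. libraries. MS replicates 2 and 1 were its lowest libraries and MS replicate 3 its highest. Egln1 differed by -0.17 ± 0.15 (SE) in MS against CTL. With 1 library left out this ranged from -0.31 without MS replicate 3 to -0.09 without MS replicate 2. Egln3, a hydroxylase that is itself a HIF target, held 2.71, 1.64 and 1.53 FPKM in CTL, 1.11, 1.48 and 2.26 in MS and 1.67, 3.09 and 1.23 in Blebb. libraries. Its 3 highest libraries were Blebb. replicate 2, CTL replicate 1 and MS replicate 3, and it differed by -0.18 ± 0.27 (SE) in MS against CTL.

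A few HIF targets gave the largest differences between the group means, though none passed the test. Bnip3 and its relative Bnip3l encode receptors of the outer mitochondrial membrane that direct mitochondria to autophagy. Bnip3 (chr7:138890836-138909519, minus strand, GRCm38) stood at 15.9, 11.4 and 8.03 FPKM in CTL, 29.4, 10.6 and 18.5 in MS and 9.73, 14.0 and 10.8 in Blebb. libraries. MS replicate 1 was well above all others and MS replicate 3 was second, but MS replicate 2 lay under CTL replicates 1 and 2 and under 2 of the 3 Blebb. libraries. The group means were 11.8 ± 3.95 (SD, n = 3), 19.5 ± 9.43 and 11.5 ± 2.25 FPKM in CTL, MS and Blebb. Bnip3 differed by 0.62 ± 0.35 (SE) in MS against CTL (unadjusted p = 0.111 and adjusted p = 1.00, limma with Benjamini-Hochberg adjustment) and by -0.62 ± 0.35 (SE) in Blebb. against MS, 2 comparisons that share the MS libraries. Without MS replicate 1 the values were 0.28 and -0.28, and without MS replicate 2 they were 0.97 and -0.97.

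Bnip3l (chr14:66985239-67008877, minus strand) stood at 8.93, 11.8 and 11.6 FPKM in CTL, 17.6, 9.56 and 14.0 in MS and 7.60, 8.41 and 11.4 in Blebb. libraries. Its highest libraries were again MS replicates 1 and 3, and MS replicate 2 lay under CTL replicates 2 and 3. The difference was 0.29 ± 0.23 (SE) in MS against CTL and -0.51 ± 0.23 (SE) in Blebb. against MS. Without MS replicate 1 these were 0.10 and -0.33, and without MS replicate 2 they were 0.51 and -0.73. With all libraries, the difference of Blebb. against MS had the smallest unadjusted p of any member in any comparison, 0.054, with an adjusted p of 0.897 (limma with Benjamini-Hochberg adjustment). Kdm3a (chr6:71588972-71632990, minus strand), a histone H3 lysine demethylase that uses oxygen, held 7.20, 12.1 and 13.2 FPKM in CTL, 18.0, 8.33 and 15.7 in MS and 6.90, 5.49 and 12.4 in Blebb. libraries. MS replicates 1 and 3 were the 2 highest and Blebb. replicate 2 was the lowest, while MS replicate 2 lay under 2 CTL libraries and 1 Blebb. library. Kdm3a differed by 0.32 ± 0.36 (SE) in MS against CTL and by -0.70 ± 0.36 (SE) in Blebb. against MS. Without CTL replicate 1, MS replicate 3 and Blebb. replicate 2 the first changed sign, to -0.04, and the second was -0.37. With 1 library left out the first ranged from 0.07 without CTL replicate 1 to 0.63 without MS replicate 2, and the second from -1.01 without MS replicate 2 to -0.48 without Blebb. replicate 2. Ankrd37, a small ankyrin-repeat gene induced by hypoxia, was under the minimum at 0.383, 0.510 and 0.201 FPKM in CTL, 1.46, 0.434 and 0.381 in MS and 0.417, 0.303 and 0.350 in Blebb. libraries. MS replicate 1 was the only library above 1 FPKM, and by exact permutation (two-sided) p was 0.5 in MS against CTL and 0.2 in Blebb. against MS.

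Bnip3, Bnip3l, Kdm3a and Hif1a had their highest value in MS replicate 1, the library whose deviations had the lowest correlation with GC content. Their GC content was 41.6%, 41.9%, 45.5% and 41.3%. After each library's GC trend was taken out, MS against CTL gave 0.42 for Bnip3, 0.10 for Bnip3l and 0.22 for Kdm3a. In Blebb. against MS the differences were -0.29, -0.19 and -0.49. Over all members, 9 of 36 were highest in MS replicate 1, as were 28.7% of all genes tested. The rest of these 9 were Pfkp, Pgk1, Ldha, Gapdh and Tpi1. Their GC content was higher, at 48.0%, 49.7%, 51.5%, 52.6% and 53.5%. The parts of GC content and of this library were not tested beyond these values. Of the 75-base stretches of the longest Bnip3 and Bnip3l transcripts, 15.3% and 18.7% occur in other genes too, so that both levels are uncertain.

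**Figure D4:**
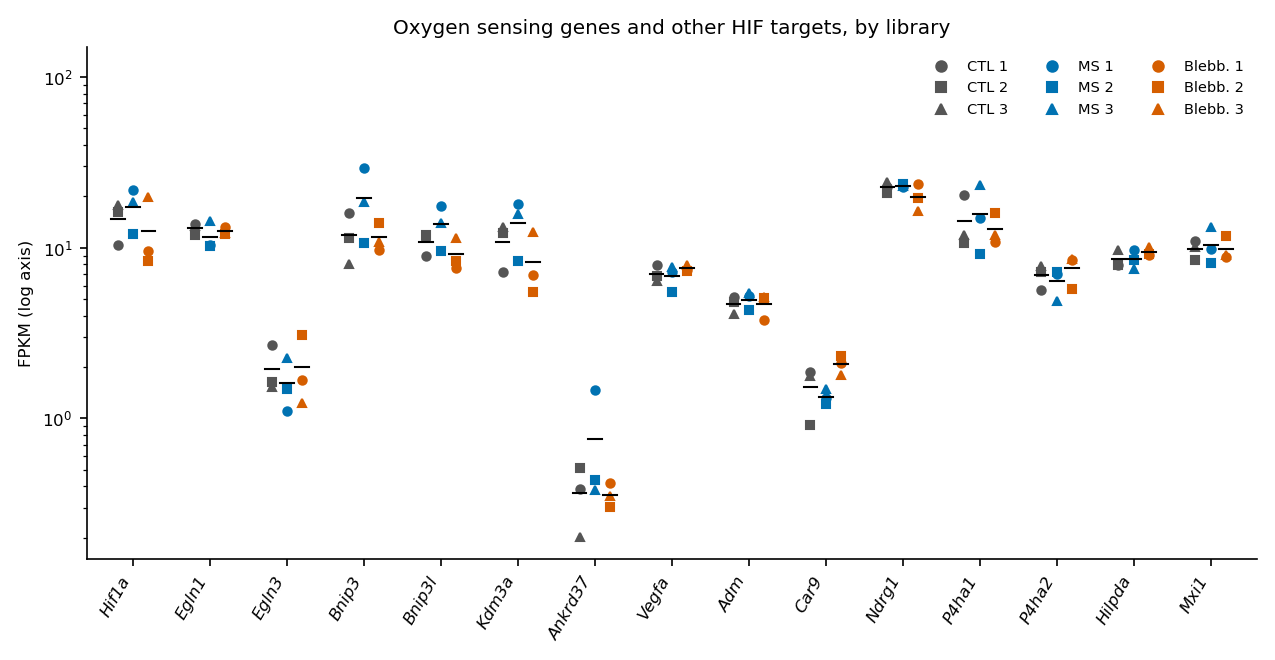
FPKM (y axis, log scale) of the 15 genes of oxygen sensing and of HIF targets in each of the 9 libraries, with gray for CTL, blue for MS, orange for Blebb., marker shapes for the library number and black lines for group means. MS 1 is the top point for Hif1a, Bnip3, Bnip3l, Kdm3a and Ankrd37, and MS 2 lies among the CTL and Blebb. points.

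The promoters of these genes are shown because HIF binds a short core, ACGTG or GCGTG, and because the sets of high libraries differ between genes that share it. Both words were searched on both strands in RefSeq windows of 250 bases before to 50 after each start (GRCm38.p6). Matches that overlap, as the palindrome CACGTG does with itself, were counted as 1 site. Of 37 members with a window, 34 held a match (91.9%), against 46.7% of 27025 genes with a window and 70.9% of the 7908 of them that were tested. Counted by windows, the shares were 78.6% of 56, 43.8% of 32851 and 64.6% of 10175. As the members include genes picked as HIF targets, a higher share among them was foreseeable and is no finding of these data. Bnip3l and Ndrg1 had no entry. The 250 bases before the start are given for Bnip3, Kdm3a and Ankrd37, highest in MS replicate 1, and for Ldha, also highest there but lowest in MS replicate 3. Each reads 5′ to 3′ on the strand of its gene, and capitals mark the matches on either strand.
Bnip3, chr7:138909507-138909756, minus strand: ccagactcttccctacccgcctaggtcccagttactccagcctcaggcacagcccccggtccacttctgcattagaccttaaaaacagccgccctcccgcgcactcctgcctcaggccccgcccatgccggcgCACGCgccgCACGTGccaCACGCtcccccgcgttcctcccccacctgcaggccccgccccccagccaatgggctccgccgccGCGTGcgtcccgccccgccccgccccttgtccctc
Kdm3a, chr6:71632918-71633167, minus strand: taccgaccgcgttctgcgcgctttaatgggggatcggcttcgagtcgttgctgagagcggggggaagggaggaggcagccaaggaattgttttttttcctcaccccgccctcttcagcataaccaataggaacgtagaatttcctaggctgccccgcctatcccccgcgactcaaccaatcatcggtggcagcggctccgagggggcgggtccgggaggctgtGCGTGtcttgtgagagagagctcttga
Ankrd37, chr8:45999851-46000100, minus strand: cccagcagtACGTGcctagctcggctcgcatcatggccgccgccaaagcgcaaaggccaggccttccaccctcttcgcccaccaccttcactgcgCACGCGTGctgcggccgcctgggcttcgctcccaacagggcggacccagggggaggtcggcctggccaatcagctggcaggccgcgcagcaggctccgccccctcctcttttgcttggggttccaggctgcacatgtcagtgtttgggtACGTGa
Ldha, chr7:46845554-46845803, plus strand: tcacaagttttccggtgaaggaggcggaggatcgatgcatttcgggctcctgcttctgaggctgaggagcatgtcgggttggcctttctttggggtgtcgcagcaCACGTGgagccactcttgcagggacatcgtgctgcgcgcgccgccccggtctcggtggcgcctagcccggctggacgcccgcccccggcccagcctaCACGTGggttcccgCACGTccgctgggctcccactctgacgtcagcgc
The stretch of Bnip3 held 4 sites, that of Kdm3a 1, that of Ankrd37 3 and that of Ldha 3. Kdm3a has 2 further windows, with 0 sites in each, and Ldha a further 1, with 1 site before the start. The match of the letters describes the window and says nothing of binding in these cells.

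Car9, carbonic anhydrase IX, is an enzyme of pH control and an often used hypoxia marker. It was low at 1.88, 0.918 and 1.78 FPKM in CTL, 1.32, 1.21 and 1.49 in MS and 2.12, 2.33 and 1.80 in Blebb. libraries. All 3 Blebb. libraries lay above all 3 MS libraries, whereas CTL overlapped with both. Car9 differed by -0.09 ± 0.19 (SE) in MS against CTL and by 0.40 ± 0.19 (SE) in Blebb. against MS (unadjusted p = 0.0683 and adjusted p = 0.897, limma with Benjamini-Hochberg adjustment). With each library left out in turn the latter lay between 0.34 and 0.46, and with the GC trend removed it was 0.30. At these levels the log2(FPKM + 1) scale understates the change. Vegfa, the vascular growth factor, was even at 7.93, 6.78 and 6.37 FPKM in CTL, 7.17, 5.50 and 7.74 in MS and 7.40, 7.35 and 7.95 in Blebb. libraries.

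The remaining targets overlapped between the groups. P4ha1 stood at 20.4, 10.7 and 11.8 FPKM in CTL, 14.9, 9.21 and 23.3 in MS and 10.8, 16.03 and 11.8 in Blebb. libraries. MS replicate 3, CTL replicate 1 and Blebb. replicate 2 were its 3 highest libraries. P4ha2 stood at 5.63, 7.23 and 7.80 FPKM in CTL, 7.06, 7.23 and 4.84 in MS and 8.52, 5.77 and 8.58 in Blebb. libraries, and the same libraries were its 3 lowest. P4ha2 differed by -0.10 ± 0.21 (SE) in MS against CTL, which turned to 0.06 without MS replicate 3, and by 0.22 ± 0.21 (SE) in Blebb. against MS. Ndrg1, a stress-responsive gene of differentiation, held 22.8, 21.0 and 24.3 FPKM in CTL, 22.7, 23.6 and 23.0 in MS and 23.7, 19.4 and 16.5 in Blebb. libraries, with its 2 lowest values in Blebb. replicates 3 and 2. The peptide hormone gene Adm (3.76 to 5.42 FPKM), the lipid droplet gene Hilpda (7.47 to 10.1) and the MYC antagonist Mxi1 (8.17 to 13.2) overlapped between the groups as well.

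**Figure D5:**
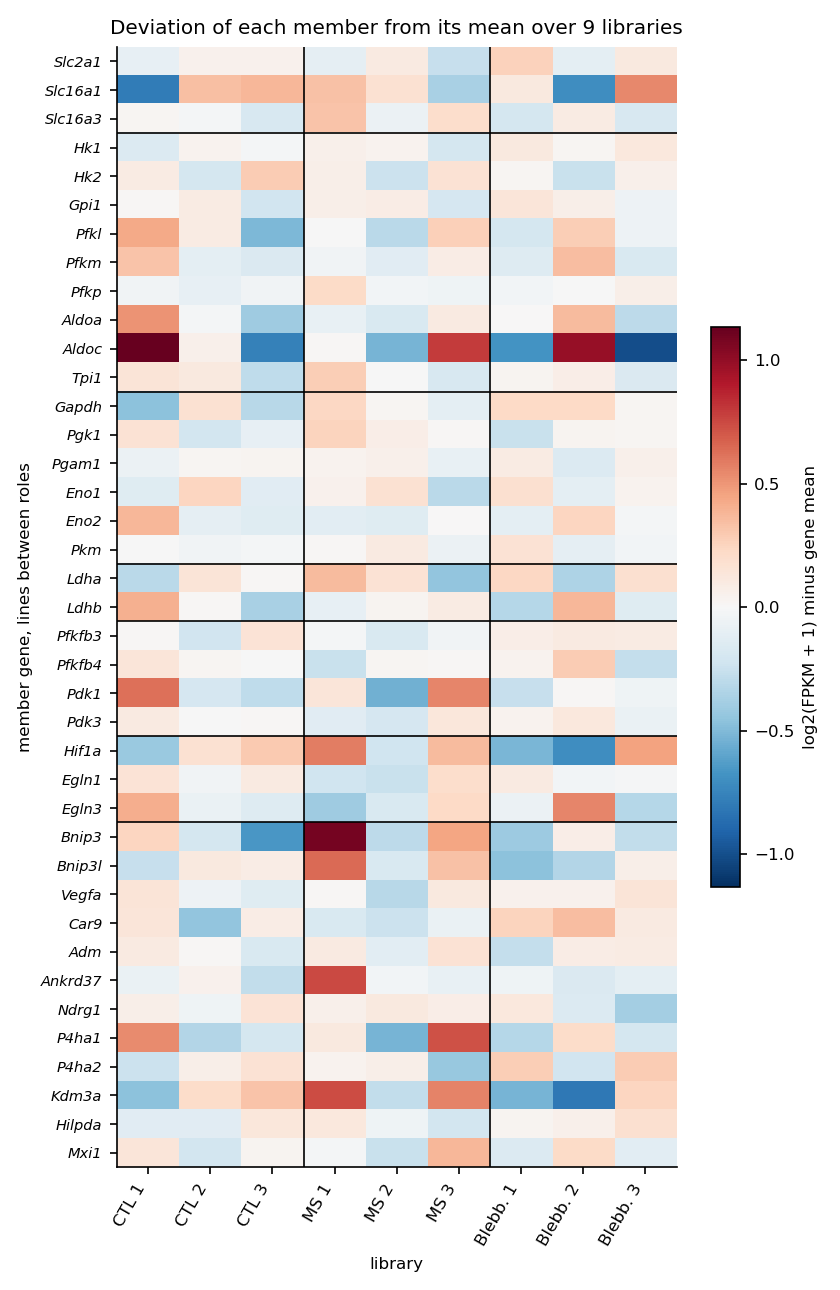
Deviation of each of the 39 members (rows, by role) from its mean over the 9 libraries (columns), as log2(FPKM + 1) minus the gene mean, red above and blue below. Aldoc and P4ha1 are red and Slc16a1 and Ldha blue in CTL 1, MS 3 and Blebb. 2, while Bnip3, Bnip3l, Kdm3a and Hif1a are reddest in MS 1.

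The spread over libraries was next set beside that of all genes. Over the 9 libraries the median SD of log2(FPKM + 1) was 0.199 for the 36 members and 0.231 for all genes tested. CTL replicate 1, MS replicate 3 and Blebb. replicate 2 were together the 3 highest for 9 of 36 members and the 3 lowest for 4 of 36, and for 15.8% and 16.1% of all genes tested. The 9 were Pfkl, Pfkm, Aldoa, Aldoc, Ldhb, Pdk3, Egln3, P4ha1 and Mxi1. The 4 were Slc16a1, Pgam1, Ldha and P4ha2.

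Other genes of the same pathways were taken from lists. Of 25 further glycolysis genes, 13 were tested and 0 passed in either direction in any comparison. Their values in MS against CTL ran from -0.20 ± 0.13 (SE) for Adpgk to 0.34 ± 0.23 for Pfkfb2, with 7 of 13 above 0. In Blebb. against MS they ran from -0.41 ± 0.30 (SE) for Gbe1 to 0.29 ± 0.13 for Adpgk, with 8 of 13 above 0, and Adpgk, which phosphorylates glucose with ADP, was the only 1 at an unadjusted p under 0.05. Adpgk stood at 19.2, 20.2 and 23.0 FPKM in CTL, 16.6, 19.4 and 17.9 in MS and 24.2, 21.1 and 21.1 in Blebb. libraries, all 3 Blebb. libraries above all 3 MS libraries and within the range of CTL but for the highest, with an adjusted p of 0.897 (limma with Benjamini-Hochberg adjustment). Hk3, Pgk2, Ldhc and Slc16a7, isoforms known from other tissues, were listed at 0 in every library.

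Among 13 genes of HIF subunits and turnover, 10 were tested and 0 passed in any comparison. Epas1, which encodes the alternative alpha subunit, did not exceed 0.569 FPKM, while the partner Arnt stood between 9.44 and 14.3 FPKM. The values ran from -0.16 ± 0.12 (SE) for Egln2 to 0.67 ± 1.40 for Hsp90aa1 in MS against CTL, and the chaperone Hsp90aa1 itself spanned 4.66 FPKM in Blebb. replicate 2 to 169 in MS replicate 1. Of 28 further HIF targets in the files, 20 were tested and 0 passed. Their values ran from -0.22 ± 0.27 (SE) for Siah2 to 0.45 ± 0.59 for Tfrc in MS against CTL, with 12 of 20 above 0, and from -0.68 ± 0.59 (SE) for Tfrc to 0.24 ± 0.20 for Plod1 in Blebb. against MS, with 9 of 20 above 0. Chosen after their values were seen, the mitochondrial gene Fam162a and the oxidoreductase gene Ero1l were highest in MS replicate 1 as well, at 96.6 and 44.4 FPKM. The other libraries held 48.8 to 65.7 and 14.7 to 31.9 FPKM. Of the 20 tested, Higd1a, Plod2, Wsb1 and Kdm4c were also highest there, and the remaining targets were highest in other libraries. Over all genes tested, 28.7% were highest in MS replicate 1.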

How the data were processed

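Total RNA was extracted with Trizol, and SMARTer libraries were sequenced by Illumina. The authors deposited 1 FPKM value per gene and library in 9 files. These values are scaled by gene length and mapped fragments. In the file of CTL replicate 1 the value column bears a sample name in place of the unit, and it was read as FPKM. The submitters' processing notes name the builds GRCm38 and mm10, while the aligner, counter and annotation are not given in the sources used here. Depth is unknown, since no step size recurred among low values (a log2 bin 0.02 wide held at most 2.14% of the ratios between libraries), so no counting intervals are given and precision was judged from replicate spread.

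The 10109 genes that averaged 1 FPKM or more were fitted as log2(FPKM + 1) with limma 3.58.1 in R 4.3.3 (lmFit on 3 groups, eBayes with trend, two-sided, Benjamini-Hochberg adjustment over all genes tested, threshold 0.05). The script was tested on simulated data. Members under the minimum and shares within families were compared by exact permutation in scipy 1.17.1, where 3 against 3 allows no p under 0.1. Positions, GC content (95.6% of genes tested) and shared 75-base stretches came from GENCODE M21, and promoters from RefSeq. GC content and stretches were those of the longest transcript of each gene. Plots were drawn with matplotlib 3.10.9 under Python 3.11.15.

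The members and lists were chosen with earlier results of these data known. Values in every library are given for the 3 most abundant members of each role, the 5 largest positive and the 5 largest negative differences in MS against CTL and in Blebb. against MS, the 5 members with the largest SD, and Slc2a1, Hk2, Pfkfb3, Pfkfb4, Pdk1, Hif1a, Vegfa, Car9 and Bnip3. Alternatives tried were median-of-ratios factors, quantile normalization, a pseudocount of 0.1, a minimum of 5 FPKM or none, removal of each library's GC trend (loess, span 0.5), no variance trend, only the groups compared, a replicate block, each library left out, and CTL replicate 1, MS replicate 3 and Blebb. replicate 2 left out together.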

Additional observations from a re-analysis of the deposited data

How the results depend on the processing

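Members past the adjusted threshold numbered 0 in all 3 comparisons under every alternative run. Genes past it numbered 0 to 1 in MS against CTL and 0 to 1 in Blebb. against MS when 1 library at a time was left out, the 1 being Gm49527 without MS replicate 2, and 0 under the other alternatives. The members' median in Blebb. against CTL lay between -0.052 and 0.073 with each library left out, the highest without CTL replicate 1. Of the 36 members tested, 25, 20 and 22 changed sign in MS against CTL, Blebb. against MS and Blebb. against CTL without at least 1 of the libraries, and 11, 11 and 7 did so without CTL replicate 1, MS replicate 3 and Blebb. replicate 2 together. Among the 5 largest positive and 5 largest negative differences of MS against CTL and of Blebb. against MS, Kdm3a in MS against CTL changed sign, to -0.037, without those 3 libraries, and 4 genes did so with 1 library left out. In MS against CTL, Eno2 ranged from -0.222 to 0.033 and P4ha2 from -0.223 to 0.058, and in Blebb. against MS, Egln3 ranged from -0.079 to 0.359 and Aldoc from -0.933 to 0.065. The cause of these changes was not tested. Genes at an unadjusted p under 0.05 (limma) numbered 16, 126 and 9 in MS against CTL, Blebb. against MS and Blebb. against CTL. They numbered 7 to 115, 34 to 934 and 7 to 94 with 1 library left out, and 11 to 183, 62 to 382 and 7 to 183 otherwise. At most 3 members were among them, and 3 were reached only in Blebb. against MS. These were Bnip3, Bnip3l and Kdm3a without MS replicate 2, and Bnip3l, Kdm3a and Hif1a without Blebb. replicate 3. The share of all genes in those settings alone is not given, so that these counts cannot be judged. Members without overlap numbered 11, 13 and 9 without the 3 libraries, beside 26.9%, 19.5% and 17.1% of all genes. With 1 library left out they numbered 0 to 8, 2 to 9 and 1 to 6. The share of all genes was not computed there, so that these counts cannot be judged. Groups of fewer libraries overlap less by construction. The replicate block gave 0 genes past the threshold. It left the members' medians at 0.0043, -0.0039 and -0.0041 by construction, since each group holds each number once. Deviations of libraries with the same number correlated between -0.785 and 0.835, so that the numbers were not taken as pairs. With 3 libraries a group and no known depth, small differences were not detectable. Larger ones could be missed as well where libraries spread widely, as standard errors of members reached 0.62.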

Other observations

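Downstream of pyruvate, 10 of 12 genes of mitochondrial pyruvate entry were tested and 0 passed in any comparison (limma with Benjamini-Hochberg adjustment). In MS against CTL 7 of 10 lay above 0, and values ran from -0.10 ± 0.22 (SE) for Pcx to 0.48 ± 0.48 for Dld. Dld, the dihydrolipoamide dehydrogenase of the pyruvate dehydrogenase complex, stood at 9.18, 19.7 and 25.1 FPKM in CTL, 35.1, 20.2 and 18.4 in MS and 13.3, 7.94 and 28.5 in Blebb. libraries. MS replicate 1 was the highest and Blebb. replicate 2 the lowest, and the groups overlapped. In Blebb. against MS values ran from -0.66 ± 0.48 (SE) for Dld to 0.31 ± 0.52 for Pdk2, with 4 of 10 above 0.

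The pentose phosphate branch, which draws glucose phosphate off to NADPH and ribose, had all 7 of its genes tested and 0 past the threshold in any comparison. The values ran from -0.16 ± 0.14 (SE) for Rpia to 0.33 ± 0.44 for Rpe in MS against CTL, and from -0.48 ± 0.44 (SE) for Rpe to 0.22 ± 0.18 for Pgls in Blebb. against MS. Rpe, ribulose phosphate epimerase, stood at 4.08, 10.2 and 11.5 FPKM in CTL, 14.6, 8.31 and 8.56 in MS and 6.50, 3.97 and 12.8 in Blebb. libraries. MS replicate 1 was again its highest library, and Blebb. replicate 2 and CTL replicate 1 were its lowest.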
